A study of Homo sapiens with 8 samples.

Results

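In MDA-MB-453 cells, 81 protein-coding genes had RNAPII peaks along much of their length with vehicle and hardly any beyond the promoter after 4 h with the CDK9 inhibitor CDDD11-8. They were selected from 9620 genes, out of 19794 annotated protein-coding genes, that were 1 kb to under 300 kb long and lay at least 3 kb from the next protein-coding gene. The gene body ran from 300 bp after the transcription start site (TSS) of the longest isoform to a point 3 kb beyond the transcription end site (TES). A gene was taken if peaks covered at least 40% of its body bases in both vehicle libraries and at most 10% in both CDDD11-8 libraries. TRPS1, which met these limits, was left out. The 81 genes were 0.842% of those examined. Because body coverage in all 4 libraries chose the genes, every difference between treatments given for them is a description, and no test was made.

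MDA-MB-453 is an established human breast cancer cell line of the luminal kind. Cells received vehicle or 600 nM CDDD11-8 for 4 h, and 2 replicates per treatment came from separate passages of this 1 line. RNAPII was precipitated with antibody CTD4H8, which was raised against the C-terminal domain of its largest subunit. Peaks had been called in each ChIP library against an input, which gave 78306 and 57493 peaks with vehicle and 25897 and 21842 with CDDD11-8. The study's methods state a minimum number of reads per sample, but the lists carry no read totals, so how depth differed between the libraries is not known here. A base outside a peak is one where RNAPII was not called, not one shown to lack it. The number of peaks differed between treatments over the whole genome, and the parts of sequencing depth and of RNAPII in that difference cannot be told apart here. The pileup values were whole numbers in the vehicle lists and multiples of a constant in the CDDD11-8 lists.

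RNAPII starts at the promoter and pauses a short way into the gene. The kinase CDK9, with its cyclin partner in the complex P-TEFb, phosphorylates the pausing factors and the C-terminal domain of RNAPII, and this lets the polymerase move into the gene body. Polymerase already released goes on to the end of the gene, so a block of release empties a gene body from its start onwards, and a long gene takes longer to clear than a short one.

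Markers of the cell line were checked first. A promoter peak, meaning any peak within 300 bp of the TSS, was present in both vehicle libraries for 23 of 40 luminal lineage genes and for 2 of 24 basal and mesenchymal genes. Of the luminal genes, 26 were among the genes examined and 10 had at least 40% coverage in both vehicle libraries. Of these, 4 were emptied, CDH1 and GRHL2 among them, which was 15.4% of those examined against 0.842% of all genes examined. Over all covered genes the count was 81 of 769, and the list was not tested. GATA3, FASN and XBP1 were covered over 100% of the body in all 4 libraries, and TFAP2A, TFAP2B and AZGP1 also stayed above the 10% limit. ESR1, the estrogen receptor gene, had no base covered in any library.

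The promoters of 4 of the genes that lost the most covered bases are shown, to let the start sites at which RNAPII remained be read as sequence. Each is the 200 bases before the TSS on the GRCh37 genome, 5′ to 3′ on the gene's strand. Capitals mark, in either orientation, the element known as the GC box, written GGGCGG, the box named after its letters CCAAT, and the E-box, written CACGTG. The TATA box letters TATAAA were searched as well. So was the E2F consensus, spelled TTCGCGC or, in its other form, as TTGGCGC. Neither element occurred in these windows.
GALNT10, chr5:153570093-153570292 (plus strand): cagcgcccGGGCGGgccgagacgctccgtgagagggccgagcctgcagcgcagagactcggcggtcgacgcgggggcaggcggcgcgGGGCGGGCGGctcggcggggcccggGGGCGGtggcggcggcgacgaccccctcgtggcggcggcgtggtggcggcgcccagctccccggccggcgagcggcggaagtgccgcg
TBL1XR1, chr3:176915271-176915470 (minus strand): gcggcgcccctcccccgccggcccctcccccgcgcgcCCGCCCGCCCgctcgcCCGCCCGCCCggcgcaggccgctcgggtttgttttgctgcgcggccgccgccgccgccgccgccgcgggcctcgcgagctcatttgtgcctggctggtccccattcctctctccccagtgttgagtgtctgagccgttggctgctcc
PPP6R3, chr11:68228020-68228219 (plus strand): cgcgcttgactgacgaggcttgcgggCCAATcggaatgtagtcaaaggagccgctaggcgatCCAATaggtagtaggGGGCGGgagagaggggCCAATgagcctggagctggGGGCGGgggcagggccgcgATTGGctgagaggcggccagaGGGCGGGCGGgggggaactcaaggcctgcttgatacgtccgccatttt
BPTF, chr17:65821419-65821618 (plus strand): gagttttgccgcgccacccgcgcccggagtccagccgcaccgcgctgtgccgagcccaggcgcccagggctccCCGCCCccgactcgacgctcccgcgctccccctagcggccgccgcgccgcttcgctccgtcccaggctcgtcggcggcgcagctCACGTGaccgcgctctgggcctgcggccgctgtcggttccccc

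Each of the 4 windows held at least 1 GC box. The PPP6R3 window held 4 CCAAT boxes and 4 GC boxes, some of them overlapping, whereas the BPTF window held 1 GC box and 1 E-box. The GALNT10 window was 84.5% G and C, with 39 CpG dinucleotides. Over all 81 genes, in a window from 250 bases before to 50 bases after the TSS, a GC box was found in 70.4% of promoters, against 55.1% of the 9620 examined. A CCAAT box was found in 44.4% against 35.2%, TATAAA in 9.88% against 11.5%, CACGTG in 4.94% against 8.38% and an E2F consensus in 14.8% against 6.13%. Among the 687 genes that were covered with vehicle but not emptied, the shares were 70.9% for the GC box, 42.9% for the CCAAT box, 8.01% for TATAAA, 10.9% for CACGTG and 9.46% for the E2F consensus. The 12 genes with an E2F consensus included CDC25A, PCLAF, POLA2, ECT2, MDM2, TFRC, DHX9, MGST1, SPTSSB and CYB5R2. Median promoter GC content was 65.0% in the emptied and in the covered genes alike and 61.3% in all genes examined. Median body GC content was 41.2% for the emptied genes, 47.6% for the genes covered but not emptied and 43.2% overall. These groups also differed in length, with medians of 47.45, 10.79 and 28.38 kb, and the part of length in body GC was not tested. A match of letters is a description and does not show a bound factor.

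Over the 81 genes, the median body coverage was 75.7% in vehicle replicate 1, 57.5% in vehicle replicate 2, 6.73% in CDDD11-8 replicate 1 and 5.63% in CDDD11-8 replicate 2. The mean of the library medians was 66.6% ± 12.9 (SD, n = 2) with vehicle and 6.18% ± 0.772 with CDDD11-8. The vehicle libraries differed from each other much more than the CDDD11-8 libraries did, and coverage was higher in vehicle replicate 1 for 70 of the 81 genes. The 81 bodies together spanned 5158 kb, of which 3675 and 3006 kb were covered with vehicle and 280.9 and 253.6 kb with CDDD11-8. Among all genes examined, both CDDD11-8 values lay under both vehicle values for 21.5%, and the median gene had a mean vehicle coverage of 0%.

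**Figure D1:**
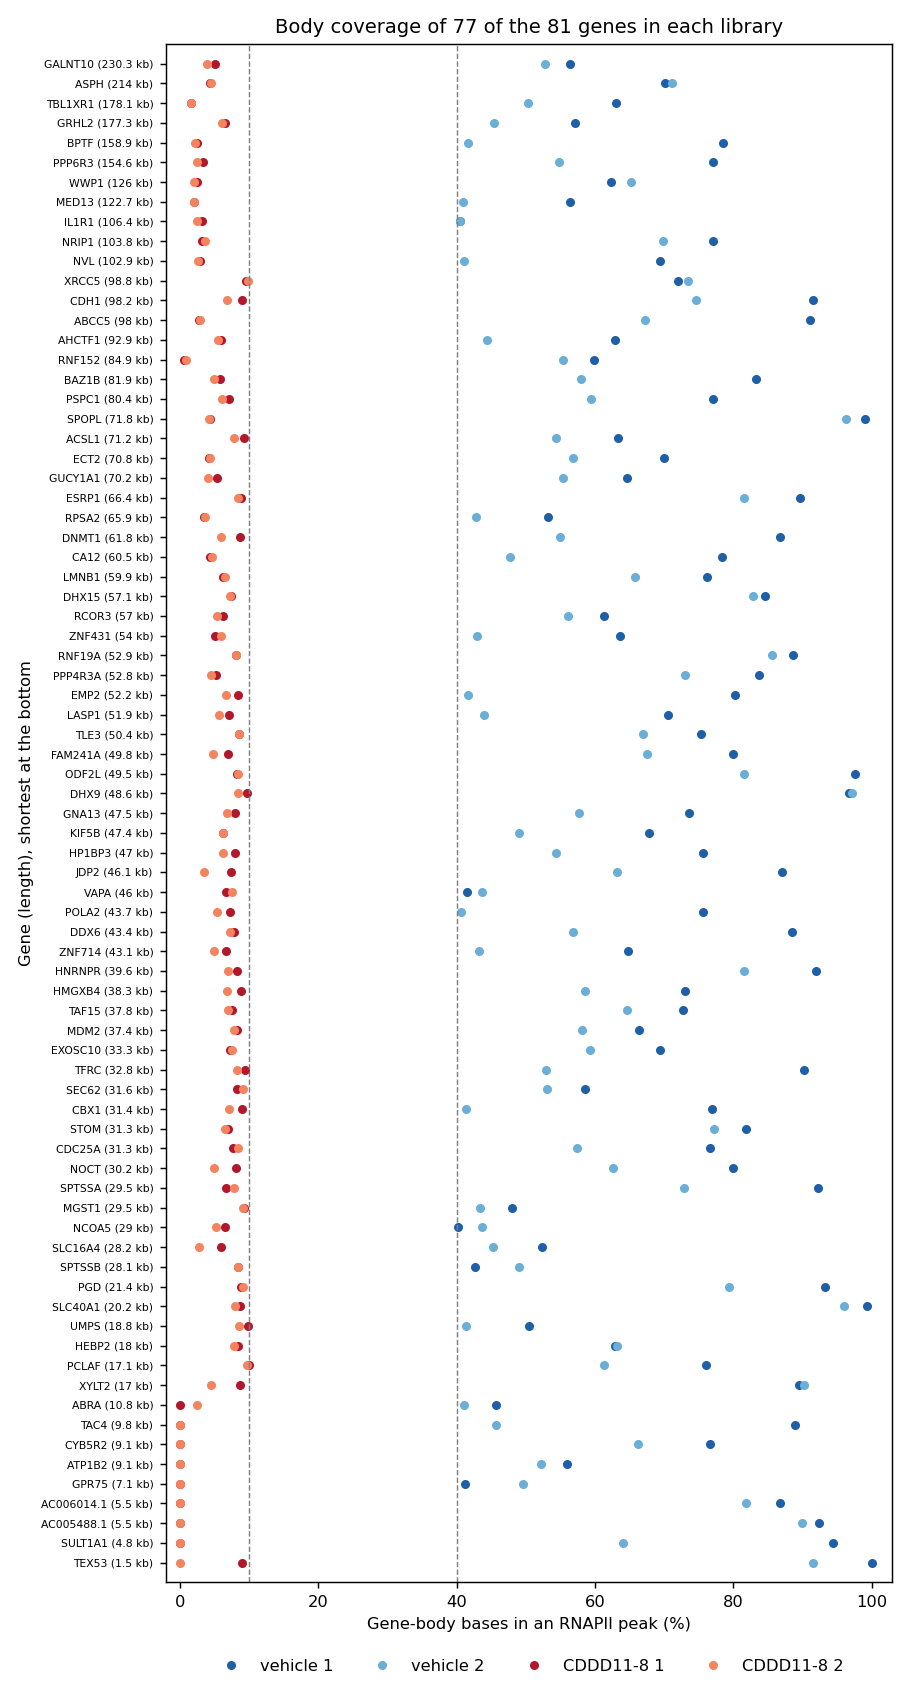
Percent of gene-body bases inside an RNAPII peak (x axis) for 77 of the 81 genes (y axis, ordered by length in kb) in the 2 vehicle (blue) and 2 CDDD11-8 (red and orange) libraries; dashed lines mark the limits of 10% and 40%. Every vehicle point lies at or right of 40% and every CDDD11-8 point at or left of 10% because the genes were chosen that way. The blue points of a gene are mostly further apart than its red and orange points, which the 10% limit holds close together.

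ASPH, which encodes aspartyl hydroxylase and, through other isoforms, the calcium-handling proteins junctin and junctate, lost more covered bases than any other gene of the 81, a mean of 143.7 kb. Its coverage was 70.2% and 71.2% with vehicle and 4.34% and 4.45% with CDDD11-8. GALNT10, an enzyme that starts O-linked glycosylation in the Golgi and the longest gene of the 81 at 230.3 kb, went from 56.4% and 52.8% to 5.01% and 3.87%.

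TBL1XR1, a subunit of the nuclear receptor corepressor complex, was covered over 63.1% and 50.3% of its body with vehicle and 1.57% and 1.64% with CDDD11-8. PPP6R3, a regulatory subunit of protein phosphatase 6, had 77.1% and 54.8% against 3.33% and 2.49%. BPTF, the largest subunit of the chromatin remodeller NURF, had 78.5% and 41.6% against 2.54% and 2.15%. For BPTF the vehicle replicates stood far apart, with 126.8 kb covered in replicate 1 and 67.2 kb in replicate 2, whereas both CDDD11-8 libraries held about the same few kilobases.

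GRHL2, a transcription factor that maintains epithelial identity, had 57.1% and 45.5% with vehicle and kept 6.50% and 6.11% with CDDD11-8. WWP1, a HECT-type ubiquitin ligase, had 62.3% and 65.3% against 2.43% and 1.97%. ABCC5, an efflux transporter, had 91.1% and 67.2% against 2.77% and 2.96%. CDH1, which encodes the adhesion protein E-cadherin, had 91.6% and 74.7% against 9.01% and 6.79%, and was also among the 10 genes with the largest loss of covered bases.

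The genes with the highest vehicle coverage were covered almost end to end. SLC40A1, the iron exporter ferroportin, was covered over 99.3% and 96.0% with vehicle and 8.66% and 7.89% with CDDD11-8. SPOPL, a substrate adaptor of cullin-3 ubiquitin ligases, was covered over 99.0% and 96.3% with vehicle and 4.28% and 4.20% with CDDD11-8, and its vehicle peaks joined into 3 and 10 separate regions besides the promoter peak. DHX9, an RNA helicase, had 96.8% and 97.1% against 9.69% and 8.39%. TEX53, the shortest gene, and AC005488.1 also belonged to the 5 with the highest mean vehicle coverage and are described with the short genes.

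The genes nearest the limits lay close together on either side. NCOA5, a nuclear receptor coactivator, passed the vehicle limit most narrowly, with 40.2% and 43.6% against 6.54% and 5.22% with CDDD11-8. IL1R1, the interleukin-1 receptor gene, had 40.5% and 40.4% against 3.15% and 2.40%, and POLA2 had 75.7% and 40.7% against 7.25% and 5.34%. Just outside, NOP58 had 79.3% and 39.8% with vehicle, SAE1 had 81.0% and 39.7% and RYBP had 40.8% and 39.7%. All 3 were under 10% with CDDD11-8, at 7.79% and 6.74%, 3.51% and 3.69%, and 6.66% and 2.98%.

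At the CDDD11-8 limit, PCLAF had 76.1% and 61.2% with vehicle and 9.97% and 9.63% with CDDD11-8, UMPS had 50.5% and 41.4% against 9.85% and 8.52%, and XRCC5 had 72.0% and 73.5% against 9.61% and 9.81%. Just outside, MSMO1 had 51.1% and 52.7% against 10.002% and 8.61%, SLFNL1 had 73.3% and 66.3% against 10.067% and 0%, and TARS1 had 77.2% and 79.2% against 10.095% and 9.74%. Coverage thus ran on across both limits without a gap.

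The emptied genes were long. They ranged from 1.5 to 230.3 kb with a median of 47.45 kb, against 28.38 kb for all genes examined and 10.79 kb for the 687 genes that were covered with vehicle but not emptied. Of the genes with at least 40% coverage in both vehicle libraries, 8 of 335 (2.39%) of 1 to 10 kb, 5 of 189 (2.65%) of 10 to 20 kb, and 7 of 93 (7.53%) of 20 to 30 kb were emptied. The share was 24 of 77 (31.2%) at 30 to 50 kb, 24 of 54 (44.4%) at 50 to 100 kb and 13 of 21 (61.9%) at 100 to 300 kb, TRPS1 being 1 of the 21. With CDDD11-8 the promoter peaks of the emptied genes reached a median of about 3130 bp past the TSS, which by itself is 10% of the body of a gene 25.6 kb long. Of the 81 genes, 66 were at least this long. The other 15 were shorter, and 6 of these had a promoter peak in all 4 libraries. The limit in percent and the promoter peak together therefore favour long genes by arithmetic, and the length difference is in part set by the rule.

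**Figure D2:**
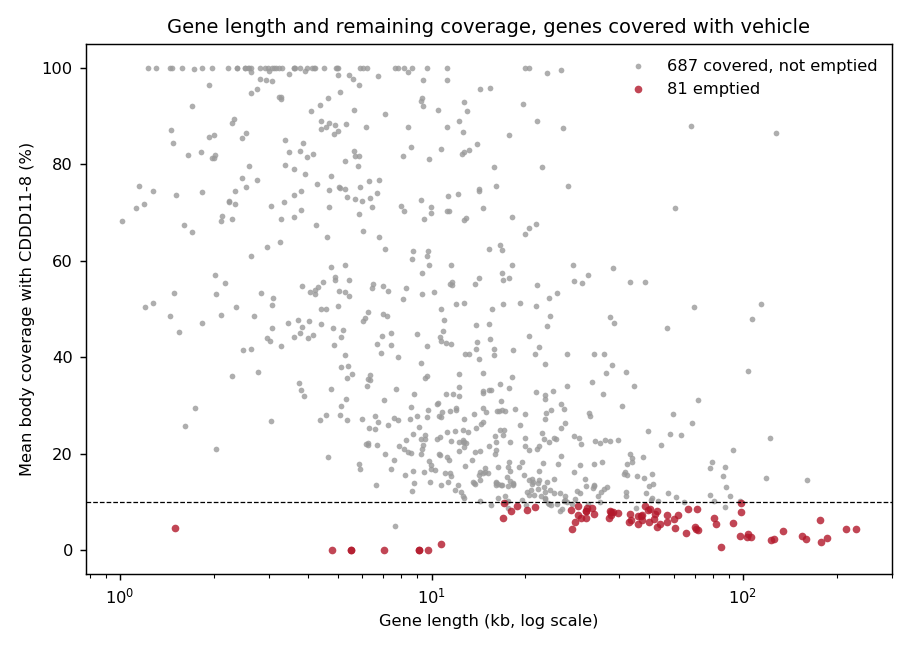
Gene length (x axis, kb, log scale) against the mean body coverage of the 2 CDDD11-8 libraries (y axis, %) for genes with at least 40% coverage in both vehicle libraries; red points are the 81 emptied genes and grey points the 687 others, and the dashed line marks 10%. The median CDDD11-8 coverage of covered genes goes from 64.9% at 1 to 10 kb to 4.39% at 100 to 300 kb, TRPS1 is not plotted, and a few grey points lie under the line because the limit was applied to each library and not to the mean.

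Coverage fell away between 2 and 10 kb into the gene. In the stretch 0.3 to 2 kb downstream of the TSS, 90.4% ± 0.136 (SD, n = 2) of the bases of the 81 genes were in a peak with vehicle and 85.7% ± 0.575 with CDDD11-8. From 2 to 5 kb the values were 67.1% ± 0.156 and 38.9% ± 5.23. From 5 to 10 kb they were 64.4% ± 10.8 and 4.35% ± 0.196. Beyond 20 kb little remained, with 62.9% ± 11.5 against 0.112% ± 0.0518 at 20 to 50 kb in the 68 genes that extended there, 61.9% ± 8.92 against 1.02% ± 0.165 at 50 to 100 kb in 37 genes, and 63.0% ± 5.84 against 0.251% ± 0.0401 at 100 to 300 kb in 13 genes. The 3 kb after the TES, where RNAPII slows before it ends transcription, went from 84.6% ± 3.43 to 5.40% ± 0.298.

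The genes that were covered but not emptied also lost coverage beyond the first bins, to a smaller extent. Their coverage was 91.9% ± 0.186 with vehicle and 95.1% ± 1.07 with CDDD11-8 at 0.3 to 2 kb. It was 69.7% ± 7.18 against 23.4% ± 7.25 at 5 to 10 kb, and 69.9% ± 8.79 against 16.3% ± 5.55 at 10 to 20 kb. Further in, where only longer genes contribute, CDDD11-8 coverage was higher again, with 18.2% ± 5.18 at 20 to 50 kb, 25.6% ± 8.89 at 50 to 100 kb in 37 genes, and 43.6% ± 20.5 at 100 to 300 kb in 7 genes. In the 3 kb after the TES it was 84.6% ± 1.81 against 40.3% ± 7.13. The lower values of the emptied genes follow from the limit that chose them. The same limit leaves a long gene in the other group only where over 10% stayed covered in a CDDD11-8 library. The higher values far into the genes of that group are therefore in part set by the rule.

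**Figure D3:**
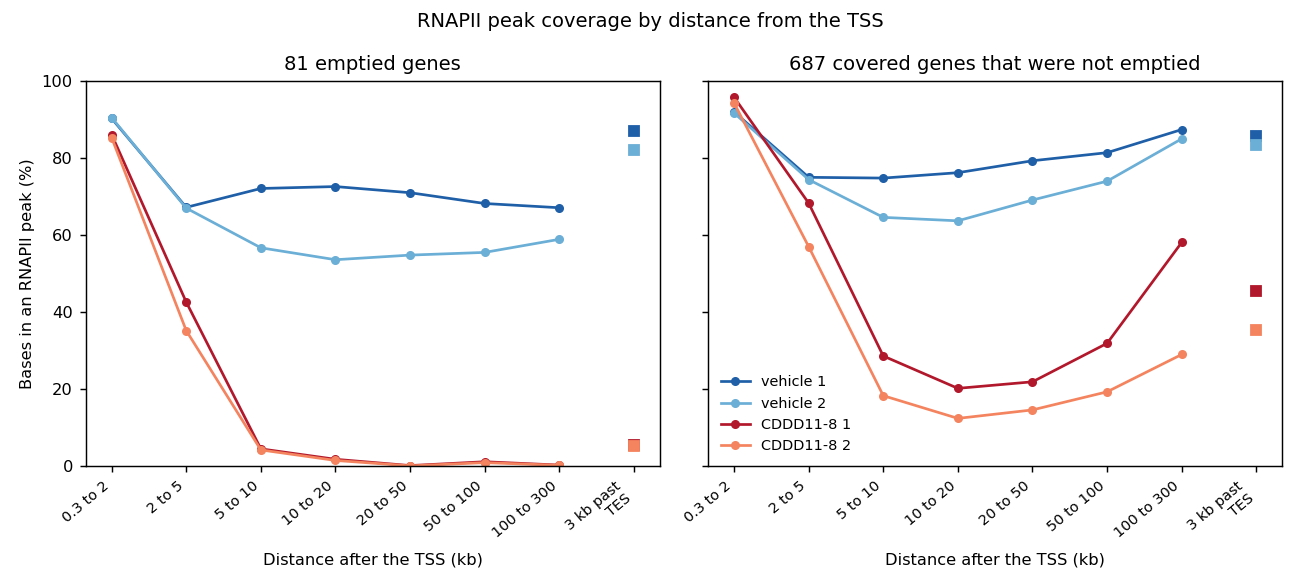
Percent of bases in an RNAPII peak (y axis) in bins of distance after the TSS (x axis, kb) and in the 3 kb after the TES (squares), for the 81 emptied genes (left) and the 687 covered genes that were not emptied (right), 1 line per library. All 4 lines of the left panel start near 90% in the first bin, and the CDDD11-8 lines are under 5% from 5 kb onwards while the vehicle lines stay above 50%.

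The promoter peak was still present in most of the genes. It was found in 76 and 77 of the 81 genes with vehicle and in 72 and 70 with CDDD11-8. In all 4 libraries it was found in 70 genes (86.4%), against 40.3% of the genes examined. For the 687 covered genes that were not emptied this share was 93.6%. Per library, they had it in 95.2% and 94.9% with vehicle and in 96.7% and 95.5% with CDDD11-8. In these 70 genes the median fold enrichment of the promoter peak over the local background was 7.04 and 11.2 with vehicle and 32.8 and 19.9 with CDDD11-8. Both CDDD11-8 values lay above both vehicle values for 66 of the 70 genes, and for 87.5% of the 3875 genes examined that had a peak in each library. The exceptions included CA12, a carbonic anhydrase gene, with 10.6 and 16.3 against 16.0 and 12.7, as well as SPTSSB and XYLT2. The number and scaling of peaks also differed between treatments, and their part in this difference was not tested.

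The promoter peaks of the 70 genes differed in width in both directions. Their median width was 4693 and 5018 bp with vehicle and 5924 and 5456 bp with CDDD11-8. Both CDDD11-8 peaks were wider than either vehicle peak for 35 of 70 genes, against 69.9% of the genes examined, and both were narrower for 11 (15.7%), against 7.59%. Both reached further into the gene for 22 of 70 (31.4%), against 61.7%. Of the covered genes that were not emptied and had a promoter peak in each library, 39.0% had wider and 28.9% further-reaching peaks. The reach with CDDD11-8 is part of the body coverage used to choose the genes, so these shares are descriptions. The median downstream reach was 2996 and 3225 bp with vehicle and 3362 and 2898 bp with CDDD11-8, and the upstream reach went from 1589 and 1533 bp to 2562 and 2355 bp.

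**Figure D4:**
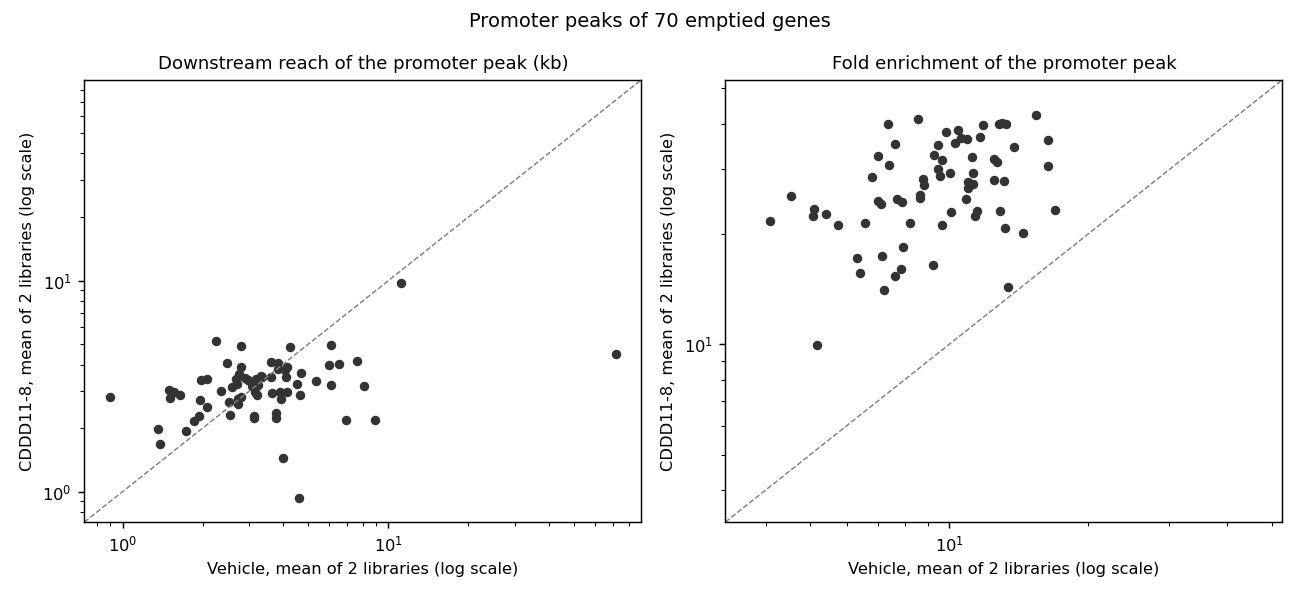
The 70 emptied genes with a peak at the TSS in each library: downstream reach in kb (left) and fold enrichment (right), mean of the 2 vehicle libraries (x axis, log scale) against mean of the 2 CDDD11-8 libraries (y axis, log scale), 1 point per gene, with the line of equality dashed. Reach lies on both sides of the line, with ASPH far to the right, and fold enrichment lies above the line for every gene plotted.

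Single genes showed the range. In ASPH the vehicle promoter peak ran without a break for 109556 bp into the gene in replicate 1 and 33522 bp in replicate 2, and it ended 4789 and 4224 bp after the TSS with CDDD11-8. In MED13, a subunit of the Mediator kinase module, it was 1374 and 1664 bp wide with vehicle and 5968 and 6041 bp with CDDD11-8, and no separate peak remained among the 66 and 62 seen with vehicle. XRCC5, which encodes the Ku80 DNA repair protein, had the longest reach with CDDD11-8, 9762 and 9753 bp, and RNF152, a lysosomal ubiquitin ligase, had the shortest of the 70 genes, 817 and 1051 bp. RNF152, 84.9 kb long, went from 59.9% and 55.4% coverage to 0.591% and 0.858%, with no separate peak left.

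What was left in the bodies was mostly the promoter peak. It held 9.11% and 9.63% of the covered body bases with vehicle, and 77.7% and 75.8% with CDDD11-8. Over all genes examined these shares were 21.0% and 27.1% with vehicle and 56.7% and 62.6% with CDDD11-8. For the 687 covered genes that were not emptied they were 35.45% and 35.4% against 54.15% and 59.0%. The 10% limit leaves little room for other covered bases, so the share in the 81 genes is in part set by the rule. A peak separate from the promoter was found in 80 and 81 genes with vehicle, and in 38 and 42 (46.9% and 51.9%) with CDDD11-8. The CDDD11-8 shares were 21.0% and 18.7% of the genes examined and 62.7% and 58.4% of the 687 covered genes. Neither CDDD11-8 library held one in 7196 of the 9620 genes examined, in 191 of the 687 and in 30 of the 81. Of the 81 genes, 22 had one or more in a single CDDD11-8 library and 29 in both. There were 71 and 84 such peaks in all, with a median width of 556 and 497 bp and a median fold enrichment of 3.43 and 3.61. A peak only partly inside a body was counted with its full width and fold enrichment. Of these, 46 and 63 were in introns, 19 and 17 lay past the TES, and 9 and 10 were at another annotated start of the same gene.

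Few of the remaining peaks were strong, with 6 and 4 of them at a fold enrichment of 10 or more. These counts include peaks at the start of a neighbouring gene that lay only partly in the body, described below. In GALNT10, which kept the most separate covered bases, a mean of 8.96 kb, a peak of fold enrichment 14.9 and 16.2 lay 97.1 kb into the gene at an alternative start of GALNT10 itself, and another of 10.7 and 10.0 lay 82.3 and 82.2 kb in, at no annotated start. In CDH1 a peak of fold enrichment 10.2 and 12.6 lay in an intron 7.21 and 7.17 kb after the TSS. In IL1R1 no library had a peak at the start of the longest isoform, and the 1 peak left, of fold enrichment 17.8 and 9.14, lay at another annotated start 72.5 and 72.6 kb further on. The 200 bases around the summit are shown for the intron peaks of CDH1 and GALNT10 that lie at no annotated start, from the library with the higher fold enrichment, and neither holds any of the motifs searched above.
CDH1, chr16:68778819-68779018 (plus strand): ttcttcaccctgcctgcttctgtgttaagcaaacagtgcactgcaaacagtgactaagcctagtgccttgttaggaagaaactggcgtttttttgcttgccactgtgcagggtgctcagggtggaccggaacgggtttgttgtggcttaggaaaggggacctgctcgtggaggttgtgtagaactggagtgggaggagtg
GALNT10, chr5:153652610-153652809 (plus strand): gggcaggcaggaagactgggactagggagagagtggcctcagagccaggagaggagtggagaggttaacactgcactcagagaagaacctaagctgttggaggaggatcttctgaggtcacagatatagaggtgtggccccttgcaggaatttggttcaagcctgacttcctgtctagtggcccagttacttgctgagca

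Among the 5 genes with the most separate covered bases left in both CDDD11-8 libraries were also GRHL2, ASPH and ACSL1. GRHL2 had a peak of 6347 bp in replicate 1 and of 3467 bp in replicate 2, centred 10.9 and 8.88 kb after the TSS. ASPH had 7 and 10 small intron peaks or peaks past the TES. ACSL1, which activates long-chain fatty acids, kept a peak of 3000 and 3234 bp at another of its starts. The ACSL1 peak also lay at an annotated start of another gene. The strongest remaining peak in replicate 1, of fold enrichment 34.0 and 6096 bp wide, lay past the TES of EXOSC10, the catalytic subunit of the nuclear RNA exosome, at the start of SRM. Most of this peak lay beyond the end of the EXOSC10 body, in which separate peaks held only 591 bp in that library. In HMGXB4, a DNA-binding protein, a peak of fold enrichment 16.5 and 13.8 lay past the TES at the start of TOM1. It was 5033 and 4136 bp wide, of which 1000 and 606 bp lay in the HMGXB4 body. Such peaks cannot be assigned to either gene of a pair. Wide peaks past the TES were also left in replicate 1 in PPP6R3, of 5633 bp and fold enrichment 5.06, and in BAZ1B, of 3563 bp and fold enrichment 4.52. In replicate 2 the same places held narrower peaks. They were 876 and 1545 bp wide in PPP6R3, with fold enrichment 2.25 and 2.88, and 1522 bp wide in BAZ1B, with 4.62. The PPP6R3 peak of replicate 1 lay at an annotated start of another gene as well, so it cannot be assigned either.

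The 81 genes were spread over 23 chromosomes, with 12 on chromosome 1, 9 on chromosome 17 and 8 on chromosome 3, and 10 lay within 1 Mb of another of the set. By the role of their products they fell into several groups. The hormone response and epithelial identity group had 9 genes and a median length of 104 kb. Besides TBL1XR1, NCOA5, MED13, GRHL2 and CDH1, it included NRIP1, a nuclear receptor corepressor, TLE3, a Groucho-type corepressor, and ESRP1, which directs epithelial splicing. NRIP1 had 77.1% and 69.9% coverage with vehicle and 3.15% and 3.59% with CDDD11-8. All 9 kept a promoter peak in all 4 libraries, and the group medians of body coverage were 65.8% and 66.9% with vehicle and 6.50% and 5.22% with CDDD11-8.

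Chromatin and transcription gave 11 genes with a median length of 47.0 kb. They were BPTF, BAZ1B, which is a remodeller subunit, DNMT1, the maintenance DNA methyltransferase, CBX1 and HP1BP3, which bind heterochromatin, RCOR3, a corepressor, TAF15, an RNA-binding protein linked to TFIID, JDP2, a repressor of the AP-1 family, HMGXB4, and the zinc finger genes ZNF714 and ZNF431. The zinc finger genes belong to a cluster of related sequences on chromosome 19, where short reads can map to more than 1 copy. The group medians were 75.7% and 55.0% with vehicle and 7.35% and 5.88% with CDDD11-8. RNA and ribosome genes numbered 10 and included DHX9, DHX15 and DDX6, which are RNA helicases, HNRNPR, EXOSC10, PSPC1, a paraspeckle protein, NOCT, a circadian phosphatase, NVL, which acts in ribosome assembly, and RPSA2, a copy of a ribosomal protein gene whose reads may come in part from related copies. Their medians were 78.5% and 59.3% against 7.32% and 6.49%.

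Genes for DNA replication, repair and division also numbered 10. CDC25A, the phosphatase that activates cell cycle kinases, had 76.6% and 57.5% with vehicle and 7.68% and 8.46% with CDDD11-8. The others included MDM2, the ubiquitin ligase of p53, XRCC5 for DNA repair, POLA2, a subunit of DNA polymerase alpha, PCLAF, a partner of PCNA, ECT2, which directs cytokinesis, LMNB1, a nuclear lamin, AHCTF1, a nuclear pore assembly factor, and ODF2L, a centriole protein. Of the list of cell cycle and MYC-related genes, part of which the study discusses for this experiment, 30 were examined, 16 were covered with vehicle, and CDC25A and TFRC were emptied, which was 6.67% of those examined against 0.842% of all genes examined. The corresponding count over all covered genes was 81 of 769. In this list both CDDD11-8 values lay under both vehicle values for 25 of 30 genes, compared with 13 of 26 luminal, 15 of 31 secretory, 11 of 23 lipid and 8 of 15 calcium genes, and with 21.5% of all genes examined. A gene with no vehicle coverage cannot go lower. Median vehicle coverage was 51.7% in this list, 27.3%, 6.51%, 6.80% and 3.83% in the other lists in that order, and 0% over all genes examined. Of the 687 covered genes that were not emptied, 74.8% were lower in this way, so the counts follow vehicle coverage in part.

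Enzymes made up 14 genes. ACSL1 had 63.4% and 54.4% against 9.24% and 7.89%. It belonged to the lipid and sterol list, in which 23 genes were examined, 6 covered and 2 emptied (8.70% of those examined, against 0.842% of all). SPTSSA and SPTSSB are small subunits of serine palmitoyltransferase, PGD acts in the pentose phosphate pathway, UMPS makes pyrimidines, MGST1 is a glutathione transferase, XYLT2 a xylosyltransferase and GUCY1A1 a guanylate cyclase subunit, and ASPH, GALNT10, CA12, SULT1A1 and CYB5R2 also belonged to the group. ASPH was 1 emptied gene of the calcium and ion list, in which 15 were examined and 4 covered (6.67% of those examined, against 0.842% of all). Only a covered gene could be emptied, and over all covered genes the count was 81 of 769. Neither list was tested.

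Transport and secretion gave 10 genes. TFRC, the transferrin receptor, had 90.2% and 52.9% against 9.36% and 8.21%, and with SLC40A1 it made a pair of genes for iron entry and exit. SEC62, part of the protein translocation channel of the endoplasmic reticulum, had 58.5% and 53.1% against 8.26% and 9.13%, and was 1 emptied gene of the secretory list, in which 31 were examined and 5 covered (3.23% of those examined, against 0.842% of all). Here too, 81 of 769 was the count over all covered genes, and the list was not tested. ABCC5, SLC16A4, a monocarboxylate transporter family member, ATP1B2, a sodium pump subunit, STOM, a membrane scaffold, HEBP2, a heme-binding protein, VAPA, which tethers the endoplasmic reticulum to other membranes, and KIF5B, a kinesin motor, were the others.

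Signalling and cytoskeleton held IL1R1, GPR75, a G protein-coupled receptor, GNA13, a G protein subunit, TAC4, a tachykinin precursor, PPP4R3A and PPP6R3, both phosphatase subunits, LASP1, an actin-binding protein, ABRA, an actin-binding activator of signalling in muscle, and EMP2, a tetraspan membrane protein. Ubiquitin ligases and their adaptors, beside MDM2, were WWP1, RNF19A, RNF152 and SPOPL. For FAM241A, TEX53, AC005488.1 and AC006014.1 no role is given here.

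In 11 genes the start of the longest isoform had no promoter peak in some library, and 9 of these were the shortest genes. TEX53 was covered over 100% and 91.5% with vehicle and 8.97% and 0% with CDDD11-8, SULT1A1, a phenol sulfotransferase, over 94.4% and 64.0% against 0% in both, and GPR75 over 41.2% and 49.7% against 0% in both. ATP1B2 had 56.0% and 52.2%, CYB5R2, a cytochrome b5 reductase, had 76.7% and 66.2%, and TAC4 had 88.9% and 45.7%, each against 0% in both CDDD11-8 libraries. ABRA had 45.7% and 41.0% against 0% and 2.40%. ATP1B2, CYB5R2, ABRA and IL1R1 had no peak at this start in any library, so their covered bases did not begin there. ATP1B2 and CYB5R2 had a peak at another annotated start in both vehicle libraries and in neither CDDD11-8 library. ABRA had no peak at any annotated start in any library. SLC16A4 had 52.4% and 45.3% against 5.96% and 2.72%, and its promoter peak was missing in CDDD11-8 replicate 2 alone.

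Some genes shared their vehicle regions with a neighbour or lay near a covered gene. Of the vehicle-covered bases of TAC4, 65.7% and 70.3% lay in regions that ran into KAT7, the next gene, whose own body was covered over 77.6% and 36.9% with vehicle and 4.70% and 6.35% with CDDD11-8. For CBX1 this share was 33.4% and 59.7%, in regions running into NFE2L1, and for XYLT2 55.7% and 5.06%, into MRPL27. TMEM268, 9.88 kb downstream of TEX53 on the other strand, had 94.9% and 83.4% with vehicle against 19.9% and 16.4%. ChIP carries no strand, so RNAPII of such a neighbour and of the gene itself cannot be told apart. AC005488.1 had 92.4% and 89.9% with vehicle and AC006014.1 had 86.8% and 81.8%, with 0% in both CDDD11-8 libraries for each. The sequences of the latter genes, both on chromosome 7 and 5519 and 5518 bp long, were 99.89% identical with 6 differences, so short reads cannot be assigned to 1 of them with certainty.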

How the data were processed

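RNAPII ChIP-seq peak lists of 4 libraries were analysed, 2 for each treatment; the 4 input libraries were not analysed as samples. The authors aligned reads to GRCh37 (hg19) with Bowtie 2 and called peaks per library with MACS2 at default settings against a paired input, without pooling replicates. DiffBind and deepTools are also named in the submitters' processing notes, and versions are not given in the sources used here. The deposited pileup is a signal at each summit, the deposited fold enrichment is a ratio to local background, the deposited q-value is on the −log10 scale and the deposited length is in bp. Summits sharing a region were joined to 1 peak. The methods state a minimum of reads per sample, but the read total behind each list is not known here, so no interval from depth is given.

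Genes came from GENCODE 44 lifted to GRCh37, 1 longest protein-coding isoform per gene, and 0 peaks lay beyond a chromosome end of that build. Coverage is the percent of body bases in a peak. Genes were named by role, apart from a few that are not reported here, and values per library were given for the 10 with the most lost bases, the 5 shortest and longest, the 5 with the highest vehicle coverage, the 3 nearest each limit on either side, those lacking a promoter peak in a library, members of the gene lists and up to 5 with separate peaks left in both CDDD11-8 libraries. Promoters were shown for 4 of the first group. The genes, roles and lists were chosen with earlier results of these data known. No test was made. Coverage was tested on simulated peaks. Python 3.11.15, numpy 2.4.6, pandas 2.3.3, pysam 0.24.0 and edlib 1.3.9.post1 were used.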

Additional observations from a re-analysis of the deposited data

How the results depend on the processing

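The number of emptied genes depended strongly on where limits and windows were set. It was 81 as reported, 38 with equal numbers of peaks per list (34 shared with the 81), 142 with the body starting 2 kb downstream and ending at the TES (63 shared), 15 with limits of 50% and 5%, 252 with limits of 30% and 15%, 197 with no spacing minimum and 39 with spacing from lncRNA genes too. Other settings moved the number less, though not always the genes. It was 62 at a −log10 q-value of at least 5 (50 shared) and 121 with peaks within 1 kb merged (78 shared). With the Ensembl canonical isoform it was 100 (75 shared), and with no upper length limit 84. A body starting 5 kb downstream and ending at the TES, chosen after seeing the data, gave 232 (63 shared). Leaving out 1 library gave 85 to 191, the highest without vehicle replicate 2, and 122 without CDDD11-8 replicate 1. The median length of 47.45 kb became 37.66 kb with equal numbers of peaks, 28.75 kb with the body from 2 kb to the TES, 84.94 kb with limits of 50% and 5% and 33.07 kb with limits of 30% and 15%, and lay between 41.71 and 48.64 kb with 1 library left out. With the 81 genes kept, median vehicle coverage was 43.44% with equal numbers of peaks and 82.01% with peaks within 1 kb merged, and CDDD11-8 coverage was 2.47% with the body from 2 kb to the TES. The promoter peak's share of remaining bases was 82.58% at a −log10 q-value of at least 5. The share of genes with a wider promoter peak was 17.14% with peaks merged, when it was 53.48% over all genes, and 54.29% to 64.29% with 1 library left out, the highest without vehicle replicate 2. The causes of these shifts were not tested. No paired test was made, because no test of the contrast was made at all.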

Other observations

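Genes longer than the limit of 300 kb that met the coverage limits included CERS6 and ITPR1. CERS6, a ceramide synthase of 318.9 kb, had 43.8% and 40.8% of its body covered with vehicle and 1.36% and 1.47% with CDDD11-8, and ITPR1, a calcium release channel of the endoplasmic reticulum and 354.2 kb long, had 46.2% and 43.4% against 1.28% and 1.34%.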
